A study of Homo sapiens with 32 samples.

Results

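Epithelial cells keep their identity through transcription factors that switch on junction, polarity and keratin genes, and through RNA-binding proteins that select epithelial exon variants. When cells undergo epithelial-mesenchymal transition (EMT) in response to the cytokine TGFβ1, these regulators are commonly reduced while repressors of the SNAIL and ZEB families are raised. The genes followed here were chosen by name as regulators of this kind. They comprised the splicing regulators ESRP1 and ESRP2, the RNA-binding protein gene RBM47, the Grainyhead-like factor genes GRHL1 and GRHL3, the zinc finger repressor gene OVOL1, the ETS factor gene ELF3 and the p53 family gene TP63. Of 9 genes named, 8 were matched by their Ensembl identifier to a row of the count table, which held 17788 genes, and GRHL2 was not analysed here. All 8 passed the filter on low counts. The rule for choosing them used names and no measured value, although earlier results of these data were known when it was set.

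Expression was measured by RNA sequencing in MCF10A, an immortalized, non-tumorigenic human mammary epithelial cell line. WT denotes clones 27 and 2, labelled JUNB WT. Clones 1 and 65, labelled JUNB knock-out and called mut, had been edited with CRISPR/Cas9 in JUNB, which encodes a subunit of the transcription factor AP-1. Each clone received TGFβ1 at 5 ng/ml for 6, 24 or 72 h, or the solvent alone (labelled time 0), in 2 replications, which made 8 groups of 4 libraries. A clone with its replication number is termed a series, for example 27-2. All clones were grown in the same medium with serum, EGF, hydrocortisone, cholera toxin and insulin, and each descends from 1 sorted cell, so that with 2 clones per genotype an effect of JUNB cannot be told apart from differences between clones. The paper describes 2 independent biological replicates per condition. Nothing in the labels says that replications were separate thawings or cultures, so p-values measure the spread between these libraries.

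Library totals ranged from 39702412 to 54651906 counts, and 3 counts, taken as the floor, corresponded to at most 0.0756 CPM, the count of a gene scaled to its library total. JUNB itself was detected at 89.7 to 117 CPM in WT solvent libraries and at 69.2 to 172 CPM in mut solvent libraries. Its counts thus do not separate the genotypes, and WT and mut stand for the labels. For the mut clones the paper reports no WT JUNB protein, but a smaller TGFβ1-inducible product at low level. In the paper's view this product most likely lacks the transactivation domain. The labelled cell type was checked against markers. The 5 basal mammary markers summed to between 8065 and 18586 CPM in every library and the 5 general epithelial markers to between 449 and 1160 CPM. The 4 markers of hormone-receptor-positive luminal cells that were measured summed to 29.8 to 49.7 CPM, mostly GATA3 (21.3 to 39.95 CPM) and FOXA1 (4.09 to 14.7 CPM), with KRT19 at no more than 0.314 CPM, and PGR was not analysed here. The 5 fibroblast markers summed to 15.2 to 91.3 CPM, of which COL1A1 (3.16 to 73.4 CPM) and DCN (4.34 to 33.5 CPM) made up most, while COL1A2 was at 0.364 CPM or less. Of the endothelial and leukocyte markers, VWF and PTPRC stayed below 0.14 CPM and CD68 reached 24.4 CPM, while PECAM1 was not analysed here. In bulk RNA, fewer cells that express a gene and less RNA per cell cannot be told apart.

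SNAIL and ZEB proteins bind the E-box letters CACCTG, AP-1 binds TGANTCA and Grainyhead-like factors bind AACCNGTT. These letters were searched on both strands in the 250 bases before each annotated start of the members (RefSeq, GRCh38.p14). Windows were given for 9 starts of 5 members, GRHL3, ELF3, GRHL1, TP63 and RBM47. Promoters of ESRP1, ESRP2 and OVOL1 were not analysed here. The E-box letters occurred in 3 of the 9 windows, at bases -21, -120 and -208 from the start, and neither of the other motifs occurred in any. Of 35116 promoter windows of this length, 17.5% held CACCTG, 6.57% held TGANTCA and 1.49% held AACCNGTT. The 3 windows with an E-box match, of GRHL3, RBM47 and ELF3, are shown because they hold the only matches among the 9 windows. The capitals mark the match, and each window runs 5′ to 3′ on the strand of its gene, from chr1:24319107-24319356 (plus strand, GRHL3), chr1:202010337-202010586 (plus strand, ELF3) and chr4:40514582-40514831 (minus strand, RBM47).
GRHL3: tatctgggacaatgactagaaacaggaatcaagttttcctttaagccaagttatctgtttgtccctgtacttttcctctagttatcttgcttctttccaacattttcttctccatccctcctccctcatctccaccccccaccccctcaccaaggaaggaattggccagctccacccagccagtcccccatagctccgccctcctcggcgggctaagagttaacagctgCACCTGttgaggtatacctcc
ELF3: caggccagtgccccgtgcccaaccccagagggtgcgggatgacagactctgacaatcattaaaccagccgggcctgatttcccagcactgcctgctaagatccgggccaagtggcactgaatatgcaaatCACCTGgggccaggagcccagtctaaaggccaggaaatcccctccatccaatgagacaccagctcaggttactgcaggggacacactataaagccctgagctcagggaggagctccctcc
RBM47: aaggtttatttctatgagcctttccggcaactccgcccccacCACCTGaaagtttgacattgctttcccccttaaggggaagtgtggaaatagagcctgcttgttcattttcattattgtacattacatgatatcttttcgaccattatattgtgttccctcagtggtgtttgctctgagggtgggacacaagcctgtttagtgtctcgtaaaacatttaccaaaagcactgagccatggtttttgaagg
GRHL3 has another annotated start and RBM47 3 further starts whose windows held none of the letters searched, and the counts do not tell which start was used. A match of letters describes the sequence and is not evidence of binding.

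The 8 genes spanned a wide range of abundance. Levels of different genes were compared as CPM per kilobase of summed exon length. In WT solvent libraries ESRP1 was the most abundant at 37.4 ± 8.81 CPM per kb (SD, n = 4), and its lowest library, at 24.3, lay above the highest library of any other member. GRHL3 at 15.7 ± 3.97, ESRP2 at 15.1 ± 1.51 and TP63 at 13.04 ± 1.53 CPM per kb followed with overlapping libraries. RBM47 was lower at 2.34 ± 0.813 CPM per kb and overlapped ELF3, at 1.07 ± 0.963, and also GRHL1. GRHL1, at 0.775 ± 0.435, and OVOL1, at 0.572 ± 0.346 CPM per kb, overlapped each other and ELF3. In mut solvent libraries the order was ESRP1 (43.1 ± 4.95), TP63 (16.5 ± 1.79), GRHL3 (15.5 ± 1.73), ESRP2 (14.1 ± 0.748), RBM47 (2.16 ± 0.140), ELF3 (0.695 ± 0.356), GRHL1 (0.577 ± 0.105) and OVOL1 (0.408 ± 0.267 CPM per kb). There, TP63, GRHL3 and ESRP2 again overlapped, whereas RBM47 stood apart from the 3 genes of lowest abundance. After 72 h of TGFβ1 GRHL3 had dropped out of the upper group, at 2.84 ± 1.57 CPM per kb in WT and 4.30 ± 0.586 in mut cells.

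**Figure D1:**
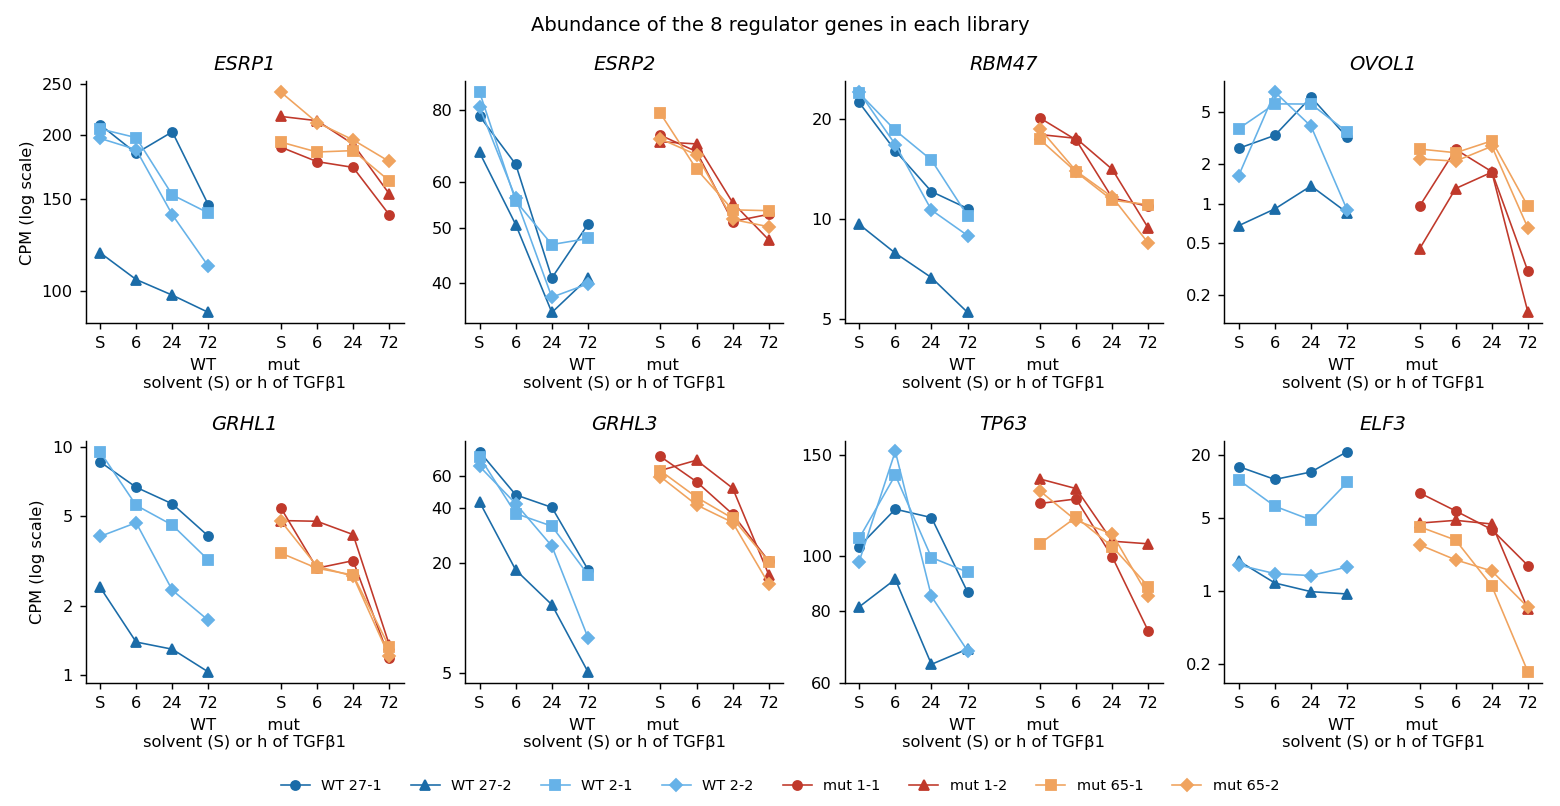
Abundance of the 8 genes in each of the 32 libraries, as CPM on a log axis, for WT series (left) and mut series (right) in solvent (S) and after 6, 24 and 72 h of TGFβ1. Each point is 1 library and each line joins the 4 libraries of a series. GRHL3 and RBM47 decline along every WT line, and the WT series 27-2 runs lowest in most panels.

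Changes were tested with limma-voom, and genes with an adjusted p-value under 0.05 are called differentially expressed genes (DEGs). After 6 h of TGFβ1 in WT cells 2 of the 8 genes were DEGs, both lower, ESRP2 and GRHL3, while 11.9% of all 14865 genes tested were lower DEGs. At 24 h there were 3, all lower, with RBM47 added, against 38% of all genes. At 72 h there were 5, ESRP1, ESRP2, RBM47, GRHL1 and GRHL3, all lower, against 38.4%. In mut cells none was a DEG at 6 h, by limma-voom, edgeR or DESeq2, and 0 of 8 passed at an unadjusted p of 0.05, against 4.94% of all genes called lower. ESRP2 was the 1 lower DEG at 24 h, against 17.1%. At 72 h the 5 DEGs were ESRP2, RBM47, GRHL1, GRHL3 and TP63, all lower, against 16.3%. The median log2 change of the 8 genes at 72 h was -0.69 in WT and -1.30 in mut cells. That of all genes was -0.19 and -0.09. The mut median fell between RBM47 (-0.90) and OVOL1 (-1.70), and neither OVOL1 nor ELF3 (-2.80) was a DEG there. Taken gene by gene, the fall was not generally larger in mut cells. With the WT value of each gene subtracted from its mut value, the median was -0.01, and 4 of 8 genes lay below 0. Scaling by trimmed mean of M-values (TMM) factors brought the median of all genes in WT cells at 72 h to -0.03, and the log2 changes of the WT comparison are to be read relative to this shift.

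The libraries of a series share a clone and a replication number and deviated together from their groups, so each comparison with solvent was also fitted with the series as a replicate block. With the block, 7 of the 8 genes were DEGs in WT cells at 6 h (2 higher), 7 at 24 h (1 higher) and 6 at 72 h, while 25.9%, 59.6% and 60% of all genes were DEGs in either direction. In mut cells 2, 5 and all 8 genes were DEGs at the 3 times, against 16.5%, 35% and 33.9% of all genes.

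**Figure D2:**
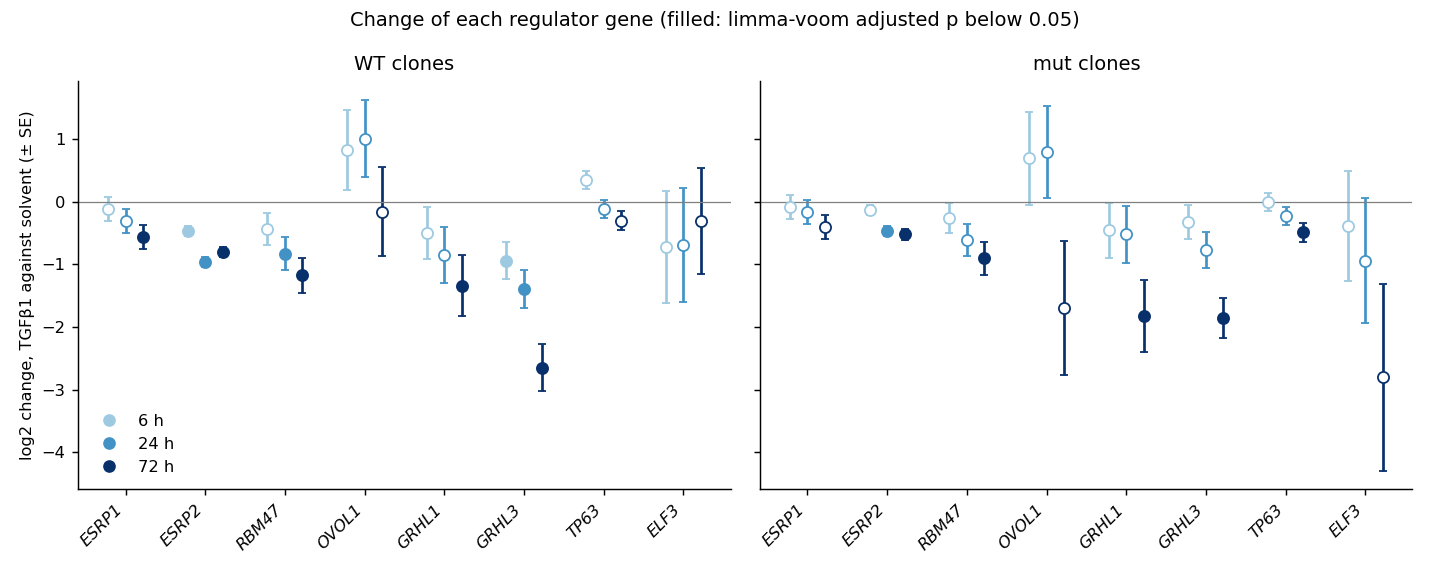
Log2 change of each gene in TGFβ1-treated against solvent libraries (± SE, limma-voom without the block) in WT (left) and mut (right) cells after 6, 24 and 72 h. Filled points are DEGs. GRHL3 reaches -2.65 in WT and -1.85 in mut cells at 72 h, and the error bars of OVOL1 and ELF3 are the widest.

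ESRP1 and ESRP2 encode RNA-binding proteins that promote the epithelial exon choices of genes such as FGFR2 and CD44. ESRP1 (ENSG00000104413) lies on GRCh38 chromosome 8 from 94641074 to 94707466, plus strand. In WT solvent it was measured at 205 CPM in 2-1, 197 in 2-2, 209 in 27-1 and 118 in 27-2. After 72 h of TGFβ1 the same series gave 141, 111, 146 and 90.7 CPM. All 4 series were lower at 72 h than in solvent, with log2 changes of -0.54, -0.82, -0.52 and -0.38, although the groups overlapped through the low solvent library of 27-2. The log2 change was -0.57 ± 0.19 (SE, adjusted p = 0.0157), and with TMM factors it was -0.40 (adjusted p = 0.0779), which was not called. Nor did edgeR (adjusted p = 0.0640) or DESeq2 (adjusted p = 0.0506) call ESRP1, and the call was lost without WT 72 h 27-2 (-0.43, adjusted p = 0.0791), WT solvent 27-1 (0.0561) or WT solvent 2-1 (0.0527). At 6 h (168 ± 42.6 CPM) and 24 h (148 ± 43.0 CPM) WT cells did not pass the test (adjusted p = 0.735 and 0.187). In mut cells the solvent libraries gave 189, 217, 193 and 242 CPM in 1-1, 1-2, 65-1 and 65-2, and the 72 h libraries gave 140.1, 154, 163 and 177 CPM. These groups did not overlap. The log2 change of -0.41 ± 0.19 had an adjusted p of 0.126, and 5.71e-05 with the replicate block.

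ESRP2 lay below the solvent library of the same series in all 4 series of both genotypes at every time. It lies on GRCh38 chromosome 16 from 68229033 to 68238102, minus strand (ENSG00000103067), and shares 227 of its 5189 exon bases with NFATC3 on the opposite strand, so that some reads may come from that gene with a kit that keeps no strand. In WT solvent its CPM were 86.1 in 2-1, 81.0 in 2-2, 78.2 in 27-1 and 67.6 in 27-2. They fell to 55.6, 56.3, 64.5 and 50.6 CPM at 6 h and to 46.7, 37.8, 40.9 and 35.6 CPM at 24 h, and were 47.9, 39.9, 50.7 and 40.8 CPM at 72 h. The treated libraries of each time lay below all 4 solvent libraries. The log2 changes were -0.46 ± 0.08, -0.96 ± 0.08 and -0.81 ± 0.08 (SE), and all 3 were called (adjusted p = 0.000203, 3.95e-10 and 7.87e-09).

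In mut cells ESRP2 started at 72.4, 70.6, 79.1 and 71.4 CPM in 1-1, 1-2, 65-1 and 65-2. At 6 h it was 67.8, 69.9, 63.2 and 67.0 CPM, a log2 change of -0.13 ± 0.08 that did not pass the test (adjusted p = 0.343). At 24 h it had fallen to 51.2, 55.3, 53.7 and 51.7 CPM and at 72 h it was 52.8, 47.6, 53.5 and 50.2 CPM. The log2 changes were -0.47 ± 0.08 (adjusted p = 0.000151) and -0.53 ± 0.08 (adjusted p = 2.05e-05). At 24 h all 4 mut libraries lay above all 4 WT libraries. The mut change minus the WT change, termed the interaction, was 0.33 ± 0.11 at 6 h (adjusted p = 0.708), 0.49 ± 0.12 at 24 h (adjusted p = 0.00871) and 0.28 ± 0.12 at 72 h (adjusted p = 0.115). ESRP2 was the 1 of 8 genes with a called interaction at 24 h, against 9.65% of all genes. Its call at 24 h was kept in all 11 other settings tried, with a highest adjusted p of 0.0462, and in all 16 fits without 1 library. With the replicate block the interaction of ESRP2 was 0.49 at 24 h and 0.28 at 72 h, with adjusted p-values of 0.000481 and 0.0250, and at 72 h it was 0.19 (adjusted p = 0.107) when TMM factors were added.

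RBM47 encodes an RNA-binding protein involved in alternative splicing and RNA editing. Its locus is on GRCh38 chromosome 4 from 40423267 to 40630875, minus strand (ENSG00000163694). WT solvent libraries held 23.9 CPM in 2-1, 24.0 in 2-2, 22.4 in 27-1 and 9.61 in 27-2. At 6 h the values were 18.4, 16.7, 16.0 and 7.87 CPM, at 24 h 15.001, 10.6, 12.1 and 6.64 CPM, and at 72 h 10.2, 8.89, 10.7 and 5.22 CPM. Each series was lower at each step, and the series 27-2 began near the level to which the other 3 series came down. The log2 changes were -0.44 ± 0.25 at 6 h (adjusted p = 0.250), -0.84 ± 0.26 at 24 h (adjusted p = 0.00889) and -1.18 ± 0.28 at 72 h (adjusted p = 0.000828). Fitting the replicate block gave the change at 6 h an adjusted p of 0.000993. Without the library WT 24 h 27-2, RBM47 at 24 h was not called, with a log2 change of -0.61 and an adjusted p of 0.0583.

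In mut cells RBM47 started at 20.1, 17.9, 17.3 and 18.6 CPM in 1-1, 1-2, 65-1 and 65-2 and was 10.9, 9.35, 11.01 and 8.43 CPM at 72 h, without overlap. The log2 change at 72 h was -0.90 ± 0.26 (adjusted p = 0.0122). Without the series 1-2 it was -0.89 with an adjusted p of 0.0601. At 24 h (12.1 ± 1.29 CPM) the log2 change of -0.61 ± 0.26 missed the threshold, with an adjusted p of 0.0841, and 1.79e-05 with the replicate block. The interaction of RBM47 was 0.27 ± 0.38 at 72 h (adjusted p = 0.702).

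Grainyhead-like factors activate genes of epithelial junctions and of the skin barrier. GRHL3 showed the largest change of the 8 genes in WT cells at 24 and 72 h among the called DEGs. It lies on GRCh38 chromosome 1 from 24199558 to 24364482, plus strand (ENSG00000158055). It overlaps STPG1 and LINC02800 in the annotation without shared exon bases. In WT solvent its CPM were 76.2 in 2-1, 67.7 in 2-2, 81.5 in 27-1 and 43.2 in 27-2. They were 37.3, 42.3, 47.2 and 18.3 CPM at 6 h, 31.8, 24.8, 40.3 and 11.8 CPM at 24 h, and 17.2, 7.79, 18.4 and 5.06 CPM at 72 h. Every series declined from time to time, and at 24 and 72 h no treated library reached the solvent libraries. The log2 changes were -0.94 ± 0.29 (adjusted p = 0.0249), -1.39 ± 0.31 (adjusted p = 0.000354) and -2.65 ± 0.37 (adjusted p = 1.11e-06). The call at 6 h was not made by edgeR (adjusted p = 0.0905), by DESeq2 (adjusted p = 0.100) or with the compared groups alone (adjusted p = 0.0647). It was also lost without WT 6 h 27-2, with -0.64 and an adjusted p of 0.132, and without each of the solvent libraries 27-1, 2-1 and 2-2, with adjusted p-values of 0.08, 0.0681 and 0.0547.

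In mut solvent libraries GRHL3 was at 76.6 CPM in 1-1, 64.2 in 1-2, 64.0 in 65-1 and 59.4 in 65-2. At 6 h the values were 55.8, 73.1, 45.8 and 41.6 CPM, with 1-2 above its own solvent library. At 24 h they were 37.0, 51.4, 35.1 and 33.3 CPM, and at 72 h 20.4, 17.2, 20.3 and 15.3 CPM. The treated libraries of 24 and 72 h lay below all solvent libraries. The log2 changes were -0.33 ± 0.28 at 6 h (adjusted p = 0.521), -0.77 ± 0.29 at 24 h (adjusted p = 0.0516) and -1.85 ± 0.32 at 72 h (adjusted p = 8.51e-05). With series as a block GRHL3 at 24 h had an adjusted p of 6.66e-05. The interaction of GRHL3 was 0.63 ± 0.42 at 24 h and 0.80 ± 0.49 at 72 h, with adjusted p-values of 0.397 and 0.312. Fitting the block gave 0.58 (adjusted p = 0.0361) and 0.67 (adjusted p = 0.0294), and adding TMM factors to the block gave adjusted p-values of 0.0776 and 0.0583.

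GRHL1 was present at a far lower level. Its locus is on GRCh38 chromosome 2 from 9951693 to 10002277, plus strand (ENSG00000134317). WT solvent libraries held 9.55 CPM in 2-1, 4.06 in 2-2, 8.62 in 27-1 and 2.43 in 27-2, and WT libraries at 72 h held 3.19, 1.74, 4.07 and 1.03 CPM. All 4 series fell from unequal starting levels, with log2 changes of -1.58, -1.22, -1.08 and -1.23, so that the groups overlapped. The log2 change was -1.35 ± 0.49 (adjusted p = 0.0221). The call was lost without any 1 of WT solvent 27-1 (adjusted p = 0.0786), WT solvent 2-1 (0.0844), WT 72 h 27-2 (0.11) and WT 72 h 2-2 (0.0581), and the adjusted p was 1.65e-07 with the replicate block. In mut solvent libraries GRHL1 was at 5.42, 4.76, 3.43 and 4.75 CPM in 1-1, 1-2, 65-1 and 65-2, and after 72 h at 1.19, 1.36, 1.33 and 1.21 CPM, without overlap. The log2 change was -1.83 ± 0.57 (adjusted p = 0.0198), and without mut 72 h 1-1 it was -1.79 with an adjusted p of 0.0507. At 6 and 24 h GRHL1 did not pass the test in either genotype in the fit without the block, with log2 changes from -0.86 to -0.46. In WT cells at 24 h it did pass with clone sums (adjusted p = 0.00271), without the series 27-2 (0.0257), without WT solvent 27-2 (0.0166) and without WT 24 h 27-1 (0.0485). With series as a block GRHL1 was called lower at both times in WT cells, at adjusted p = 0.0245 and 2.69e-05, and in mut cells, at 0.0493 and 0.0120.

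OVOL1 encodes a zinc finger protein that restrains ZEB1 and other mesenchymal genes and acts in epidermal differentiation. It lies on GRCh38 chromosome 11 from 65787063 to 65797214, plus strand (ENSG00000172818), and overlaps OVOL1-AS1 without shared exon bases. It had the lowest mean per kilobase in solvent, and 8 to 371 counts per library over all groups. In WT cells it was at 3.74, 1.64, 2.64 and 0.677 CPM in solvent (2-1, 2-2, 27-1 and 27-2), 5.78, 7.11, 3.32 and 0.910 CPM at 6 h, 5.76, 3.90, 6.51 and 1.36 CPM at 24 h and 3.52, 0.891, 3.21 and 0.849 CPM at 72 h. All 4 series were above their solvent library at 6 and 24 h, and at 72 h 2 were above and 2 below. The log2 changes of 0.82 ± 0.63 at 6 h and 1.01 ± 0.62 at 24 h had adjusted p-values of 0.422 and 0.180. In the blocked fit OVOL1 was called higher at both times, with adjusted p-values of 0.0343 and 0.00433. The change at 72 h was -0.16 ± 0.72 (adjusted p = 0.869), and 0.01 with TMM factors.

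In mut cells OVOL1 was at 0.952, 0.449, 2.61 and 2.19 CPM in solvent (1-1, 1-2, 65-1 and 65-2), 1.75, 1.74, 3.01 and 2.74 CPM at 24 h and 0.303, 0.147, 0.949 and 0.648 CPM at 72 h. Clone 65 had more OVOL1 than clone 1 in solvent, at 24 h and at 72 h, while at 6 h the values of 2.59, 1.30, 2.45 and 2.11 CPM overlapped between the clones. From solvent to 72 h every mut series was lower, with log2 changes of -1.63, -1.56, -1.45 and -1.74, whereas the groups overlapped. The log2 change of -1.70 ± 1.07 had an adjusted p of 0.262, and 0.0198 with the replicate block. The interaction at 72 h was -1.54 ± 1.29 (adjusted p = 0.482), and -1.55 with the block (adjusted p = 0.0834).

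ELF3 encodes an epithelium-specific ETS factor. It lies on GRCh38 chromosome 1 from 202007945 to 202017183, plus strand (ENSG00000163435). WT libraries fell into a high and a low pair at every time. In solvent the CPM were 11.5 in 2-1 and 15.5 in 27-1, but 1.76 in 2-2 and 1.93 in 27-2. At 72 h they were 10.9 in 2-1, 21.5 in 27-1, 1.69 in 2-2 and 0.930 in 27-2. As for GRHL1, replication 1 of both WT clones was thus higher than replication 2 for ELF3. All 4 WT series lay below their solvent library at 6 h (6.45, 1.46, 11.7 and 1.18 CPM in 2-1, 2-2, 27-1 and 27-2) and at 24 h (4.76, 1.40, 13.7 and 0.979 CPM). The log2 changes of ELF3 were -0.73 ± 0.89 and -0.69 ± 0.91 (adjusted p = 0.649 and 0.552). The replicate block called ELF3 lower at both times (adjusted p = 0.0366 and 0.0134), and the block with TMM factors at neither (0.0799 and 0.0854). At 72 h the log2 change against its own solvent library was -0.08 in 2-1, -0.06 in 2-2, 0.48 in 27-1 and -1.05 in 27-2. The change in WT cells at 72 h was -0.31 ± 0.84 (adjusted p = 0.781), and 0.16 with the replicate block (adjusted p = 0.470).

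In mut cells ELF3 was at 8.68, 4.45, 4.10 and 2.76 CPM in solvent and at 1.74, 0.661, 0.166 and 0.693 CPM after 72 h (1-1, 1-2, 65-1 and 65-2). The 2 groups did not overlap, and the log2 changes of the series, with 0.5 counts added, were -2.31, -2.73, -4.53 and -1.97. The log2 change was -2.80 ± 1.49 (adjusted p = 0.179), and -2.67 ± 0.37 with the replicate block (adjusted p = 2.13e-06). The interaction of ELF3 at 72 h was -2.49 ± 1.72 without the block (adjusted p = 0.376). It was -2.83 ± 0.41 with the block (adjusted p = 2.77e-05) and -2.90 with the block and TMM factors (adjusted p = 2.44e-05). The 4 mut series moved by more than each of the 4 WT series, as the plot of changes per series shows.

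**Figure D3:**
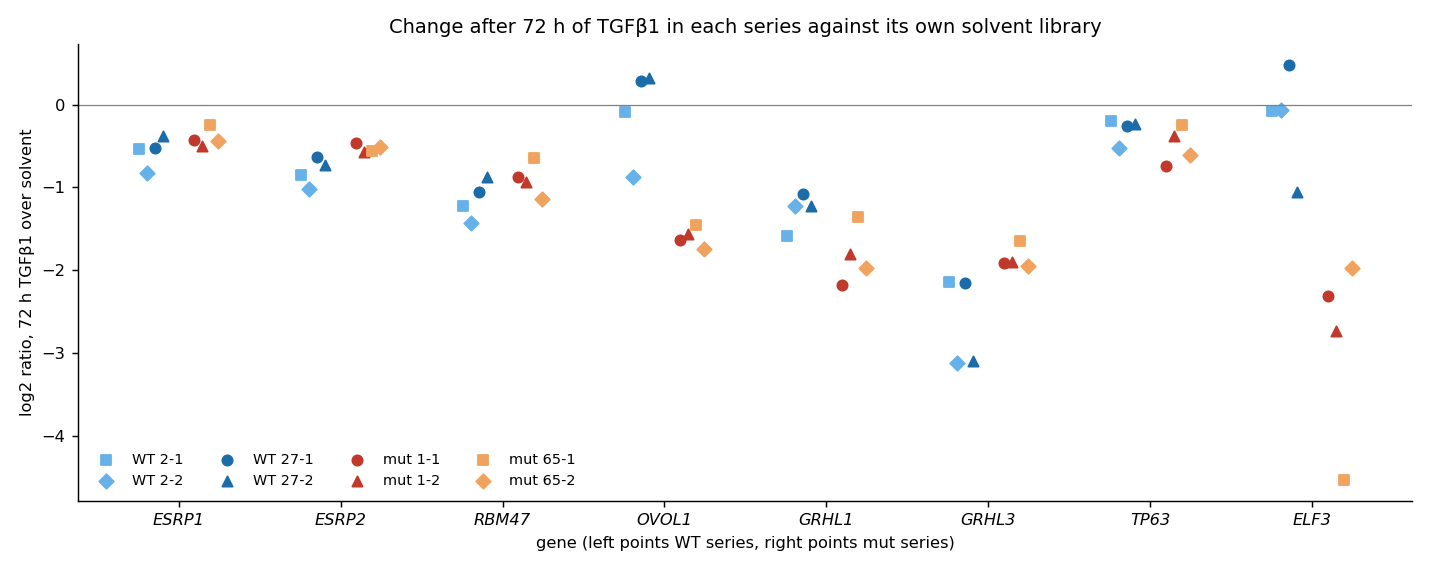
Log2 ratio of CPM after 72 h of TGFβ1 over the solvent library of the same series, with 0.5 counts added, for the 4 WT series (left of each gene) and the 4 mut series (right). Each point is 1 series. For ELF3 the mut series lie from -4.53 to -1.97 and the WT series from -1.05 to 0.48, and for OVOL1 the mut series lie from -1.74 to -1.45 and the WT series from -0.87 to 0.32.

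TP63 encodes p63, the master regulator of stratified and basal epithelium. Its locus is on GRCh38 chromosome 3 from 189631389 to 189897276, plus strand (ENSG00000073282). WT libraries held 107 CPM in 2-1, 97.7 in 2-2, 104 in 27-1 and 81.5 in 27-2 in solvent, 138, 152, 121 and 91.0 CPM at 6 h and 93.6, 68.3, 86.4 and 68.8 CPM at 72 h. All 4 series were higher at 6 h and lower at 72 h than in solvent. The log2 change at 6 h was 0.34 ± 0.15 (adjusted p = 0.112). It was called higher with TMM factors (0.42, adjusted p = 0.0456), by edgeR (adjusted p = 0.0351), by DESeq2 (adjusted p = 0.0147) and with the replicate block (0.35, adjusted p = 0.00794). At 72 h it was -0.31 ± 0.15 (adjusted p = 0.0865), and called lower with the block (adjusted p = 0.00939) but not with the block and TMM factors (adjusted p = 0.223).

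In mut cells TP63 was at 123, 136, 105 and 129.7 CPM in solvent (1-1, 1-2, 65-1 and 65-2), at 126, 131, 117 and 115 CPM at 6 h and at 73.9, 105, 88.4 and 85.0 CPM at 72 h. The 72 h libraries lay below the solvent libraries, while at 6 h 2 series were above and 2 below their solvent library. The log2 change at 72 h was -0.49 ± 0.15 (adjusted p = 0.0149). Without mut 72 h 1-1 it was -0.41 with an adjusted p of 0.0635. The interaction of TP63 was -0.36 ± 0.21 at 6 h (adjusted p = 0.999) and -0.18 ± 0.21 at 72 h (adjusted p = 0.626).

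Mut and WT cells were then compared at the same treatment state. In solvent none of the 8 genes was a DEG by limma-voom, edgeR or DESeq2, against 12.7% of all genes, and 1 passed at an unadjusted p of 0.05. The log2 differences of mut over WT ranged from -0.55 ± 0.76 for OVOL1 to 0.34 ± 0.15 for TP63. At 6 h ESRP2 was higher in mut cells by 0.24 ± 0.08 (adjusted p = 0.0329), the 1 DEG of 8 against 21.4% of all genes, and that call was lost without any 1 of 6 libraries and without the series 27-2 (adjusted p = 0.0777). At 24 h ESRP2 was higher by 0.40 ± 0.09 (adjusted p = 0.000592), again the 1 DEG of 8, against 36.9%. At 72 h none of the 8 was a DEG by limma-voom, against 39.2%, with 1 at an unadjusted p of 0.05. DESeq2 called OVOL1 (-2.15, adjusted p = 0.00359), GRHL1 (-1.06, adjusted p = 0.0304) and ELF3 (-3.50, adjusted p = 0.00058) lower in mut cells at 72 h, and edgeR called OVOL1 (-2.14, adjusted p = 0.0106) and ELF3 (-3.46, adjusted p = 0.00594). In limma-voom their log2 differences were -2.09 ± 1.04, -0.76 ± 0.63 and -2.71 ± 1.501, with adjusted p-values of 0.111, 0.357 and 0.157. The WT and mut libraries of all 3 genes overlapped at 72 h. Of the 14865 genes tested, DESeq2 called 2825 higher and 2883 lower in mut cells at 72 h, and edgeR 2907 and 2654.

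The interaction was called for none of the 8 genes at 6 h, where 0.074% of all genes were called, and for none at 72 h, where 12.3% were. At each of these times 1 of the 8 had an unadjusted p under 0.05, and edgeR and DESeq2 called none at either. With the replicate block the interaction was called for 0, 2 and 3 genes at 6, 24 and 72 h, against 0.309%, 18.7% and 23.5% of all genes. These were ESRP2 and GRHL3 at 24 h, both with a smaller decline in mut cells, and ESRP2, GRHL3 and ELF3 at 72 h, where ELF3 had the larger decline in mut cells.

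At 24 and 72 h both replication 2 series of WT cells, 2-2 and 27-2, lay below both replication 1 series for all 8 genes. How many of all genes tested split in this way was not counted, so the split is not shown to be particular to the 8 genes. Fits without 27-2 still hold 2-2. The series 27-2 was mostly the lower of these. It was the lowest of the 4 WT series for 7 of the 8 genes in solvent, for all 8 at 6 h and at 24 h and for 6 at 72 h, whereas 35.3%, 34.3%, 34.9% and 25.7% of all genes tested were lowest in that series. Without it, the log2 changes of WT cells at 72 h were -0.63 for ESRP1, -0.83 for ESRP2, -1.24 for RBM47, -1.32 for GRHL1, -2.47 for GRHL3 and -0.33 for TP63, all called lower, with TP63 at an adjusted p of 0.0319. In solvent RBM47 then was lower in mut than in WT cells, with a log2 difference of -0.34 (adjusted p = 0.0283). OVOL1 was then lower in mut cells at 6, 24 and 72 h, with log2 differences of -1.33, -1.26 and -2.46 and adjusted p-values of 0.0226, 0.0179 and 0.00934, and GRHL1 was lower in mut cells at 72 h (-1.15, adjusted p = 0.0291).

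Related genes were examined as lists. Of 5 EMT repressor genes, 3 were higher DEGs and none lower in WT cells at 72 h, and 2 were higher in mut cells. SNAI1, which encodes SNAIL1, rose by a log2 change of 4.22 ± 0.47 in WT cells (adjusted p = 2.86e-08), SNAI2 by 1.48 ± 0.15 and ZEB1 by 0.72 ± 0.22. The median of this list was 0.72 in WT and 0.70 in mut cells. Of 14 further epithelial transcription regulators tested, 11 were lower and none higher in WT cells at 72 h, and 7 were lower in mut cells, with medians of -0.48 and -0.21. In WT cells the log2 change was -4.09 for EHF, an ETS factor related to ELF3, -3.51 for the epidermal differentiation factor ZNF750 and -1.04 for TFCP2L1, a Grainyhead-related factor. The mut changes of these genes were -3.78, -3.32 and 0.17. ZNF750 was scarce, and its lowest WT library at 72 h held 0.0914 CPM, near the floor. Of all genes, 52.2% in WT and 24.1% in mut cells were DEGs in either direction at 72 h. Lower DEGs made up 38.4% and 16.3% of all genes, and 2061 and 1161 of the 14865 genes tested were higher DEGs. In solvent, FOXA1 and TFAP2A were lower in mut than in WT cells, with log2 differences of -0.87 and -0.37, and GATA3 was higher, at 0.26. These were the 2 lower and 1 higher DEGs among the 14 regulators, against 12.7% of all genes in either direction.

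Genes known as targets of Grainyhead-like factors were mostly lower. Of 7 tested, 5 were lower DEGs in WT cells and 4 in mut cells at 72 h, and none was higher. Of all genes, 38.4% in WT and 16.3% in mut cells were lower DEGs at that time. The medians of the list were -1.10 and -1.70. In WT cells the log2 change was -4.04 ± 1.15 for DSG1, a desmosomal cadherin. It was -2.86 for TGM1, which crosslinks the cornified envelope, and -1.30 for RAB25, a small GTPase of apical trafficking. DSG1 was scarce, with a mean of 1.33 CPM in WT solvent and 0.135 CPM at 72 h, near the floor. Genes known as targets of p63 moved in both directions. Of 12 tested, 2 were higher and 8 lower in WT cells at 72 h, and 2 were higher and 7 lower in mut cells. In either direction 52.2% of all genes were DEGs in WT cells and 24.1% in mut cells. The keratin gene KRT14 rose by a log2 change of 1.48 ± 0.32, while the extracellular matrix gene FRAS1 (-1.30) and the atypical cadherin gene FAT2 (-1.02) fell.

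Genes with exons known to be under ESRP control, were examined by total transcript, since exon choice was not counted. Of 7 tested, 1 was higher and 2 lower in WT cells at 72 h, and 2 were higher and none lower in mut cells, against 52.2% and 24.1% of all genes in either direction. The receptor gene FGFR2 changed in opposite directions, by -0.61 ± 0.15 in WT cells (adjusted p = 0.00168) and 0.63 in mut cells, and its interaction was called. The starting levels of FGFR2 differed, as in solvent it was lower in mut than in WT cells (-0.72, limma-voom adjusted p = 0.00206). In WT cells CD44 rose (0.34) and MAGI1, which encodes a junction scaffold, fell (-0.45). Of 11 other splicing regulators tested, 2 were higher and 5 lower in WT cells at 72 h and 0 were DEGs in mut cells, and among the DEGs in WT cells the log2 changes of largest size were -0.32 for SRSF1 and PTBP2 and -0.29 for HNRNPM. The list median of -0.20 in WT cells was near the -0.19 of all genes.

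**Figure D4:**
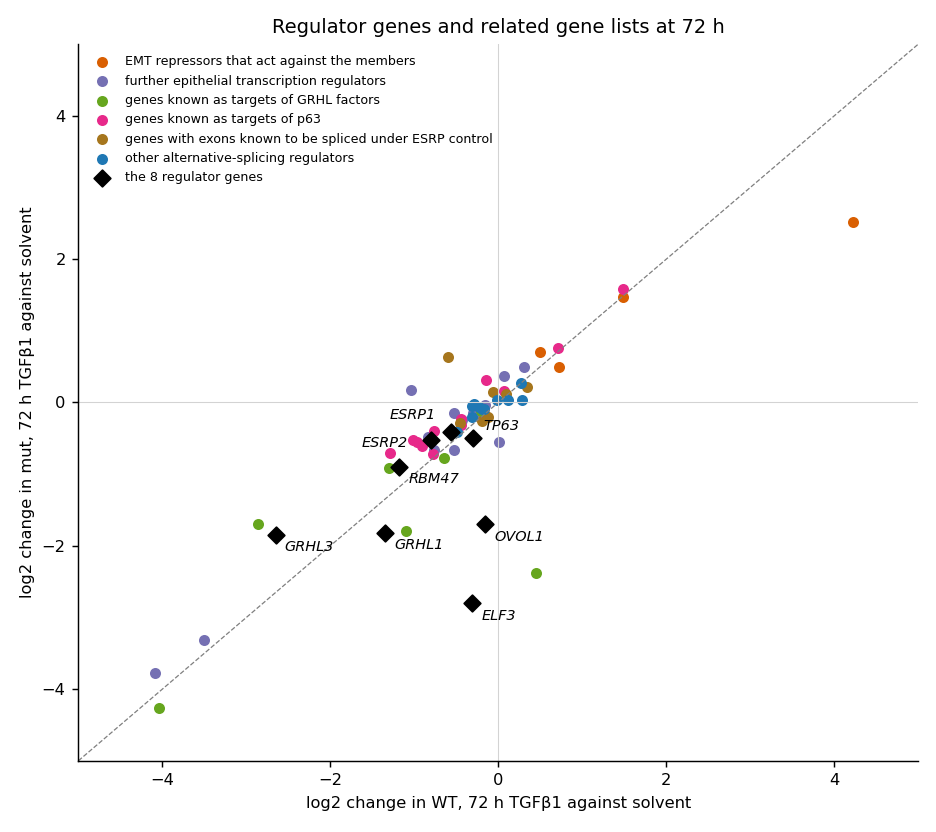
Log2 change after 72 h of TGFβ1 against solvent in WT (horizontal) and mut (vertical) cells for the 8 regulator genes (black diamonds) and the genes of the 6 related lists (coloured points). The dashed line marks equal change. ELF3 (-0.31 and -2.80) and OVOL1 (-0.16 and -1.70) lie below the line and GRHL3 (-2.65 and -1.85) above it.

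For each member the 2 genes with the most similar profile were sought among all genes tested, by Pearson's r of log2 CPM over the 32 libraries. These libraries share groups and series, so r is a description. GRHL3 was closest to PRR15L (r = 0.962) and MAL2 (0.955), ESRP2 to SLC27A2 (0.953) and ARHGEF16 (0.951), ESRP1 to AP1M2 (0.946) and THRB (0.928), and RBM47 to CACNB4 (0.935) and SRD5A1 (0.934). GRHL1 was closest to KLK8 (0.949) and RHOV (0.919), and RHOV (0.907) together with VILL (0.886) was closest to ELF3. TP63 was closest to GPCPD1 (0.900) and the desmosomal cadherin gene DSG3 (0.872), and OVOL1 to PLCD1 (0.891) and CDH3 (0.817). No member appeared among the 2 closest genes of another member.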

How the data were processed

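RNA sequencing of 32 MCF10A libraries was analysed from read counts per gene that the authors deposited without normalization. The authors trimmed reads with Trimmomatic and used STAR for alignment to Ensembl GRCh38 and for counting. Versions, and whether strand was used, are not given in the sources used here, and the named kit (TruSeq RNA v2) keeps no strand. Of 17788 gene identifiers 17763 were named with GENCODE release 44, which also gave coordinates and exon lengths, and 0 columns of values were left unused.

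Groups came from the labels. Replicate libraries differed by more than sampling noise in a chi-square test and each counted as 1 sample. Low counts were removed by the filterByExpr function (edgeR 4.0.16, requiring 10 counts and a total of 15), which kept 14865 genes. The 32 libraries entered 1 limma-voom fit (limma 3.58.1, R 4.3.3) scaled by library size, with a term for each condition, following the study's methods. Tests were two-sided with Benjamini-Hochberg adjustment over all genes of a comparison, and every adjusted p is from limma-voom unless another tool is named. There were 13 comparisons. Alternatives were TMM factors, quasi-likelihood tests (edgeR), Wald tests (DESeq2 1.42.0), all genes kept, mean counts from 50 upward, the compared groups alone, sums of the replications of a clone, the series 27-2 or 1-2 left out, each library left out in turn, and the series as a replicate block with and without TMM factors. The pairing by series comes from the labels, since a series is 1 clone. Of 24 correlations of deviations within series, 23 were above 0.1 (0.0283 to 0.663).

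The members, the related lists, the markers and the alternatives were chosen with earlier results of these data known. All members were named, together with JUNB and at most 3 DEGs of each list with the largest change in WT cells at 72 h or between genotypes in solvent, and the 2 genes of highest r. The list genes ELF5, CLDN3, CELF2 and RBM24 were not tested. The floor covers counting error only, as the libraries carry no molecular identifiers. Figures were drawn with matplotlib 3.10.9.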

Additional observations from a re-analysis of the deposited data

Results flagged for a closer look

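In 6 of 64 groups of 4 libraries, 1 library lay farther from the others than Dixon's criterion allows, and chance gives about 1 in 20 such groups. For ESRP1 the library 27-2 stood low in WT solvent, at 118 CPM, and at 6 h, at 105 CPM. For RBM47 the same series stood low in WT solvent, at 9.61 CPM, and at 6 h, at 7.87 CPM. In mut cells the series 1-2 stood high, at 14.1 CPM for RBM47 at 24 h and at 4.73 CPM for GRHL1 at 6 h.

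The change under TGFβ1 differed between genotypes, by a test of the interaction (mut change minus WT change, log2), for ESRP2 at 24 h, at 0.493 without the block (limma-voom adjusted p = 0.00871) and 0.491 with the series block (adjusted p = 0.000481). With the series block it also differed for GRHL3 at 24 h, at 0.575 (adjusted p = 0.0361), for ESRP2 at 72 h, at 0.277 (adjusted p = 0.0250), for GRHL3 at 72 h, at 0.673 (adjusted p = 0.0294), and for ELF3 at 72 h, at -2.83 (adjusted p = 2.77e-05). The limma-voom fit without the block called none of these. When TMM factors were added to the block, GRHL3 at both times and ESRP2 at 72 h were no longer called.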

How the results depend on the processing

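Counts of the 8 genes that passed the test are given here against the main count in brackets. With the replicate block by series they were 7 (2) in WT cells at 6 h, 7 (3) at 24 h, 2 (0), 5 (1) and 8 (5) in mut cells at 6, 24 and 72 h, and 2 (1) and 3 (0) for the interaction at 24 and 72 h. The block with TMM factors gave 5 in WT cells at 6 h and 5 at 24 h, 5 in mut cells at 24 h, 8 at 72 h, and 1 for the interaction at 72 h. The cause of these shifts beyond the smaller residual spread within series was not tested. Without the series 27-2 the counts were 4 and 6 in WT cells at 6 and 24 h, and 1 (0), 2 (1) and 2 (0) for mut against WT in solvent, at 24 h and at 72 h. Without the series 1-2 they were 3 in mut cells at 72 h and 0 (1) for mut against WT at 6 h. The compared groups alone gave 1 in WT cells at 6 h, 4 in mut cells at 24 h, and 0 and 1 for mut against WT at 6 and 72 h. Clone sums and a mean count of at least 50 each gave 2 in mut cells at 24 h. Mut against WT at 72 h gave 3 by DESeq2 and by clone sums and 2 by edgeR. There DESeq2 called 2825 of 14865 genes higher and 2883 lower, edgeR 2907 and 2654, and clone sums 3050 and 1653 of 15640. Leaving out 1 library in turn gave 1 to 3, 3 to 5 and 3 to 6 in WT cells at 6, 24 and 72 h, 0 to 0, 1 to 2 and 3 to 5 in mut cells, 0 to 0, 0 to 1, 1 to 3 and 0 to 1 for mut against WT in solvent and at the 3 times, and 0 to 0, 1 to 1 and 0 to 1 for the interaction. No called change of a member reversed its sign in any alternative run. Of the member changes under the alternatives, 1817 kept direction and side of the threshold, 84 passed it newly, 34 lost it, and 121 uncalled changes turned sign. The SE without the block was widest for OVOL1 and ELF3, and the part of counting depth in it was not tested.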

Other observations

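ELF3 and GRHL1 in WT cells split by replication in every treatment state, with both replication 1 libraries above both replication 2 libraries. At 24 and 72 h all the genes followed here split in this way. The share of all genes with such a split was not counted. For ELF3, replication 1 of the WT clones held 4.76 to 21.5 CPM over the 4 treatment states and replication 2 held 0.930 to 1.93 CPM. Among the list genes, CLDN4, a claudin of tight junctions chosen for mention after its values were seen, had a log2 change of 1.29 in WT cells at 24 h and -0.88 in mut cells, and was lower in mut than in WT cells at 24 and 72 h, with log2 differences of -2.56 and -3.22 (adjusted p = 0.00535 and 0.0124). The limma-voom interaction of CLDN4 at 24 h was not called (-2.17, adjusted p = 0.159). TFCP2L1 fell by 1.04 in WT cells at 72 h and had a log2 change of 0.17 in mut cells, with a called interaction of 1.21.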
